A study of Homo sapiens with 12 samples.

Results

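H3K27ac, acetylation of lysine 27 on histone H3, was profiled by chromatin immunoprecipitation and sequencing (ChIP-seq) in Huh7 cells with VPS72 overexpression and in control cells. The profile comprised the 2 H3K27ac peak lists among the 12 libraries of the study, chosen by antibody and limited to chromosomes 1 to 22 and X. They held 76425 regions with VPS72 overexpression and 64460 in the control, which is 9.07% of the 1553127 regions in all lists. The other libraries of each condition were H3K4me1, FLAG, input, the histone variant H2A.Z and its acetylated form H2A.Zac.

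Huh7 is a hepatocellular carcinoma line. All cells of both groups carried a FLAG tag that had been knocked in by Cas9 at the end of the endogenous VPS72 gene, together with a blasticidin resistance gene, and colonies that survived the drug were expanded under it. The overexpression group was infected for 24 h with lenti-VPS72-FLAG virus, and the control group for the same time with lenti-HA virus, which the design text calls an empty vector. The sources used here do not say how many colonies were used. Each group had 1 H3K27ac library, so no difference below carries a replicate test, and no sample-to-sample spread can be given. Intervals cover counting error only, and reads without molecular identifiers are not independent molecules. The lists carry no gene names and no RNA, so the level of VPS72 and the identity of the cells were not checked against marker genes.

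H3K27ac is written by the acetyltransferase CBP and its close relative and marks active promoters and active enhancers. VPS72 is a subunit of the SRCAP and related remodelling complexes, which place the histone variant H2A.Z into nucleosomes, often around promoters and enhancers. H2A.Zac is the form of that variant found at active sites, and H3K4me1 is a mark of enhancers and of promoter flanks.

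With VPS72 overexpression, H3K27ac summits were lower than in the control at most places where both lists had a peak, and the difference was seen on every chromosome arm with enough places. The median summit height was 0.752 times that of the control over 23176 shared places, and 3117 of them (13.4%) were higher with overexpression. The median ratio lay between 0.714 and 0.790 on every chromosome arm with at least 100 shared places. It lay between 0.721 and 0.873 over classes of region strength, where the weakest regions chosen in the control had the highest value. Summit height is the number of reads over the summit divided by the number expected from the genome average of the same library, so depth is allowed for. Whole reads at a summit were worked back from 2 values of its peak, the deposited fold and p. A place is a stretch where deposited peaks of either H3K27ac list overlap, with a q of 0.05 or less in at least 1 of the lists. A lower level of the mark in the cells and a less enriched precipitation cannot be told apart with 1 library in each group.

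The 2 libraries were sequenced to similar depth, about 23.8 M (mega) reads with overexpression and 21.32 M in the control. Their genome averages were 2.14 and 1.87 extended reads per bp in that order of conditions. The weakest region with a q of 0.05 or less had 10 reads at its summit in both lists, and the median region had 19 reads in both. These 10 reads correspond to 4.66 times the genome average with overexpression and 5.34 times in the control. Local background, the level the peak caller expected around a summit, had a median ratio of 1.00 between overexpression and control at shared places. It was taken over the genome average of its own library, which is also its lowest value. Of the deposited peaks, 26394 with overexpression and 18593 in the control had that lowest value. A ratio near 1 is therefore partly set by this scale.

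The number of regions depended on how strong a region had to be. As deposited, the list with overexpression was the longer one, with 76425 regions against 64460 in the control. Of these, 23861 (31.2%) with overexpression and 27379 (42.5%) in the control had a q of 0.05 or less, the limit used for all results below unless stated. These regions covered 27.1 Mb with overexpression and 32.8 Mb in the control. The ratio of region numbers fell as the height limit rose. It is a ratio of counts past a limit and not of heights. At shared places the median height ratio was 0.770 at a mean of 10 to 20 reads and 0.749 at 80 or more. Over all deposited peaks, with no q limit, at 5 or more times the genome average there were 25465 regions with overexpression and 31517 in the control, a ratio of 0.808. At 10 or more times there were 10153 with overexpression and 14378 in the control, a ratio of 0.706. At 20 or more times there were 2727 and 5189 for overexpression and control, a ratio of 0.526, and at 50 or more times 72 and 274, a ratio of 0.263.

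**Figure D1:**
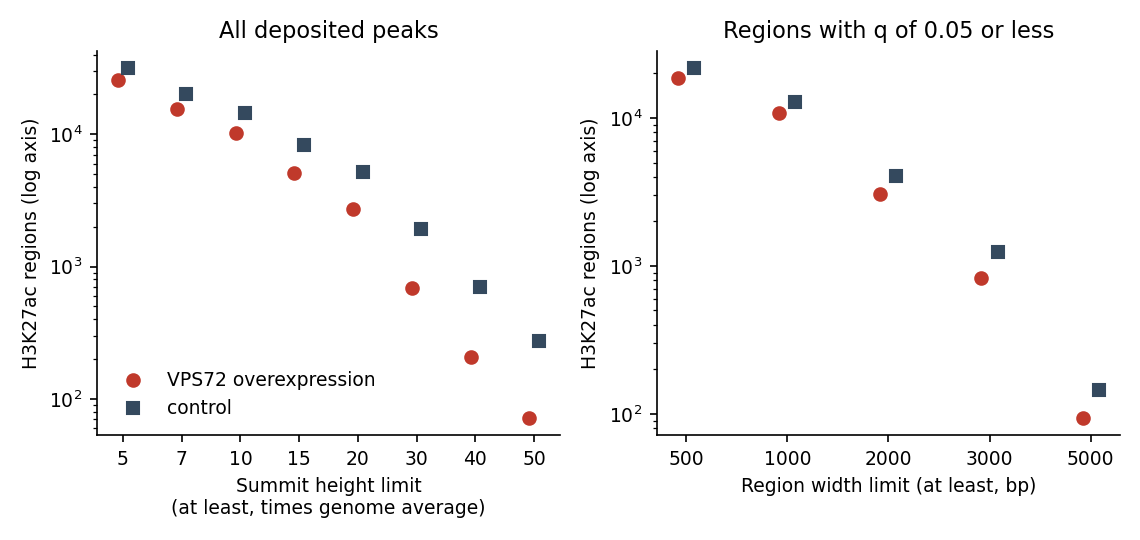
Number of H3K27ac regions at or above each limit, on a log axis, with VPS72 overexpression (red circles) and in the control (dark squares). The left panel sets limits on summit height in times the genome average over all deposited peaks, the right panel on region width in bp over regions with a q of 0.05 or less. The red circles lie below the dark squares at every limit. The ratio of region numbers is 0.808 at 5 times and 0.263 at 50 times the genome average, and it is not a ratio of heights.

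Regions were also narrower with overexpression. Their median width was 907 bp, against 943 bp in the control. Regions of at least 2000 bp numbered 3041 with overexpression and 4077 in the control, and regions of at least 5000 bp numbered 94 and 144 in the same order. At the 18458 places with exactly 1 peak in each list, overexpression peaks had a median width of 862 bp and control peaks one of 991 bp, and the median of the width ratios was 0.914. Of the overexpression regions, 1846 (7.74%) overlapped 2 or more deposited control peaks, whereas 3092 control regions (11.3%) overlapped 2 or more deposited overexpression peaks. These counts have no q limit on the other list. They were not corrected for its length, 76425 regions with overexpression and 64460 in the control. Peak ends follow the signal over background, so a lower summit and a narrower or split peak are not separate measurements.

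The 2 lists marked largely the same positions. Of the overexpression regions, 90.5% overlapped a deposited control peak (95% Wilson interval 90.1 to 90.9%). Of the control regions, 84.5% overlapped a deposited overexpression peak (84.0 to 84.9%). The share climbed steeply with the number of reads at the summit. Among overexpression regions it was 63.9% at 10 to 12 reads, 90.8% at 13 to 15 reads and 99.6% at 20 to 29 reads. Among control regions it was 52.3% at 10 to 12 reads, 77.5% at 13 to 15 reads and 98.5% at 20 to 29 reads. At shared places the highest summits of both lists lay a median of 90 bp apart, and 66.2% lay within 150 bp, about the length of DNA wrapped around a nucleosome.

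The highest H3K27ac summits were the same in both groups. The 6 highest summits of the overexpression list were also the 6 highest of the control list, and 4 of them lay in band 11q13.2. On chromosome 11, 66609627 to 66611807 (all coordinates hg19), there were 225 reads with overexpression and 256 in the control. The summit stood at 104.9 times the genome average with overexpression and 136.8 times in the control, a ratio of 0.767 (exact 95% counting interval 0.639 to 0.921). This region also carried H2A.Zac, with a summit of 82.4 times the genome average with overexpression and 103.6 times in the control.

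The region with the highest −log10 q of both lists was at 14q12, on chromosome 14, 31675120 to 31678196. It had 216 reads with overexpression and 255 in the control, and its height ratio was 0.739 (0.614 to 0.890). The highest control summit was at Xq23, on chromosome X, 115003903 to 115005381, with 215 reads with overexpression and 259 in the control and a ratio of 0.725 (0.602 to 0.872). Over the 6 highest summits the ratio ranged from 0.725 to 0.849, and the interval reached above 1 at 1 of them, on chromosome 11, 67139361 to 67142831. Local background at these 6 summits was 4.02 to 8.24 times the genome average with overexpression and 3.81 to 7.26 times in the control.

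Further regions were among the 6 highest of a list by −log10 q, and local background there was lower, 1.39 to 3.34 times the genome average with overexpression and 1.72 to 2.48 times in the control. At 2q31.2, on chromosome 2, 178126092 to 178132078, there were 155 reads with overexpression and 169 in the control, with backgrounds of 1.39 and 1.86 times the genome average in that order. The height ratio there was 0.801 (0.640 to 1.002), and the deposited fold, which divides by local background, was 37.6 with overexpression and 36.8 in the control. At 22q12.1, on chromosome 22, 29194205 to 29198498, there were 158 reads with overexpression and 187 in the control, a ratio of 0.738 (0.593 to 0.916). H2A.Zac was present at both of these regions in both groups, while H2A.Z itself did not pass the q limit at either. At 22q12.2, on chromosome 22, 29662389 to 29666455, 141 reads with overexpression stood against 183 in the control, with a ratio of 0.673 (0.536 to 0.842). At 1p36.13, on chromosome 1, 17230349 to 17231848, 144 reads with overexpression stood against 193 in the control, with a ratio of 0.651 (0.521 to 0.812). At 19q13.32, on chromosome 19, 47612708 to 47618261, the reads were 155 with overexpression and 162 in the control, a ratio of 0.835 (0.666 to 1.047).

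The lead of the control held further down the ranking. Of the 1000 highest places of each list, 779 were shared, and of the 100 highest, 80 were shared. Among the 1000 highest places of the overexpression list, 35 were higher with overexpression, with a median ratio of 0.777. Among the 1000 highest of the control list, 8 were higher with overexpression, with a median ratio of 0.721. Of these control places, 982 carried H2A.Zac and 221 carried H3K4me1 in the control. Over all control regions, 72.2% carried H2A.Zac and 20.2% carried H3K4me1.

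**Figure D2:**
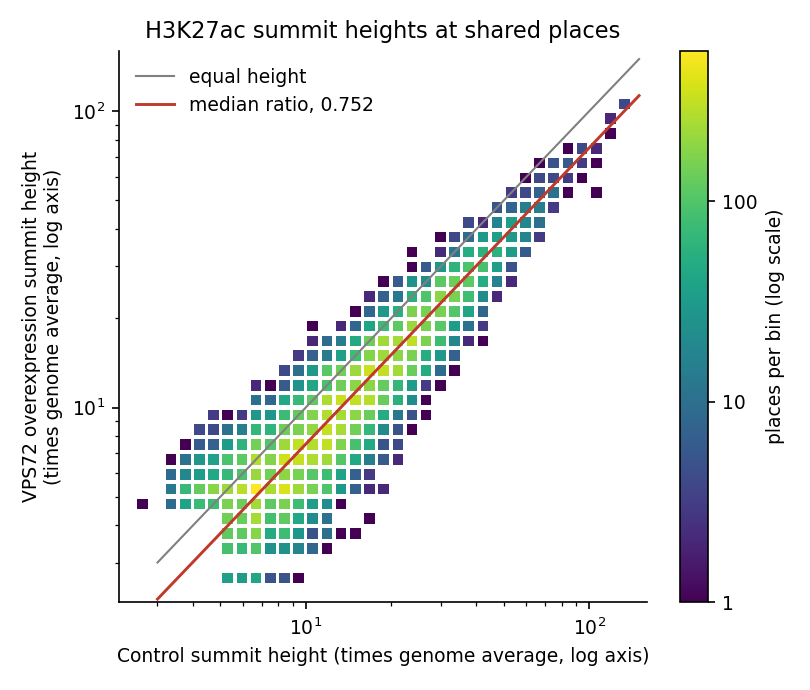
Summit height of H3K27ac at 23176 places with a peak in both lists, control on the x axis and VPS72 overexpression on the y axis, both in times the genome average on log axes. Each square is a bin coloured by its number of places on a log scale. Most of the cloud lies along the red line of the median ratio, 0.752, below the grey line of equal height. Places with a control height under 4.66 lie above the grey line, because they entered only through the overexpression list. The lowest height at the q limit in that list was 4.66 times the genome average. The empty stripes at low heights arise because summits hold whole reads.

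At a limit of 1.5-fold, 6981 of the 23176 places (30.1%) were lower with overexpression and 152 (0.656%) were higher. Ratios lay between 0.551 and 1.05 from the 10th to the 90th percentile. Taken singly, few places had a counting interval that excluded 1. The exact counting interval lay wholly below 1 at 2246 places (9.69%) and wholly above 1 at 0 places. The interval excluded the median ratio of 0.752 at 184 places (0.794%), of which 95 were lower and 89 higher than that median.

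At a mean of 10 or more reads, the spread between places was narrower in each class of reads than the counting error computed from them. The intervals of single places rest on the same counting error, and whether they are too wide was not tested. At places with a mean of 10 to 20 reads the SD of the log2 ratio was 0.41, against 0.55 computed from counting error. At 20 to 40 reads it was 0.32 against 0.39, at 40 to 80 reads 0.24 against 0.29, and at 80 or more reads, over 359 places, 0.18 against 0.21. Places without a peak in both lists are not part of these SDs. The classes held 9966, 7919, 3334 and 359 of the 23176 shared places. Those with a mean under 10 reads were left out. The share of places higher with overexpression fell as reads increased, at 17.5, 9.53, 3.84 and 1.95% over the same 4 classes. The median ratio was 0.770, 0.748, 0.745 and 0.749 over those classes.

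The shares past the limit were also taken over regions chosen in either group. Of 21593 regions chosen with overexpression, 29.4% were at least 1.5-fold lower and 0.704% higher with overexpression. Of 23123 regions chosen in the control, 30.4% were lower and 1.5% higher. For regions chosen with overexpression, the median ratio over 5 classes from weakest to strongest was 0.748, 0.757, 0.748, 0.757 and 0.770. For regions chosen in the control, it was 0.873, 0.764, 0.748, 0.732 and 0.721. The slopes of the 2 choices run in opposite directions, and in the middle class both gave 0.748. In the weakest control class, 52.3% of regions had an overexpression peak to compare with at all.

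**Figure D3:**
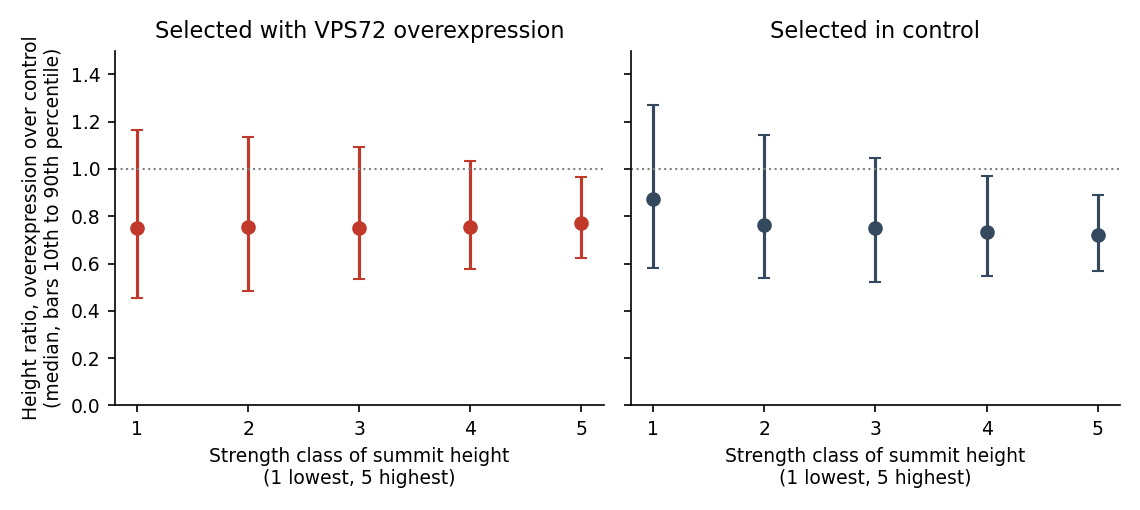
Ratio of H3K27ac summit height, VPS72 overexpression over control, by strength class of the region. Points are medians and bars run from the 10th to the 90th percentile of regions, not an error of the median. Regions chosen with overexpression are on the left and regions chosen in the control on the right. Medians lie between 0.721 and 0.873, all below the dotted line at 1.

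Width classes were compared next. From the narrowest to the widest of 5 width classes, the median ratio was between 0.806 and 0.746 for regions chosen with overexpression and between 0.762 and 0.745 for regions chosen in the control. The widest control class, 1753 to 12023 bp, had an overexpression peak at nearly every region, 99.96% of 5476.

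The broadest H3K27ac domains were shared as well. The widest overexpression region, 11041 bp at 20q11.21 within chromosome 20, 30190377 to 30201466, corresponded to 2 control peaks that covered 10805 bp of it. Its highest summit had 136 reads with overexpression and 161 in the control, a ratio of 0.737 (0.582 to 0.932). The widest control region, 12023 bp at 1q42.3 (chromosome 1, 235090045 to 235102067), held 1 overexpression peak of 10845 bp, and its ratio was 0.844 (0.578 to 1.23). At 14q21.1, the band that holds FOXA1, a pioneer transcription factor of liver, a domain on chromosome 14, 38054994 to 38066426, spanned 10961 bp with overexpression, against 11372 bp in the control. It had 57 reads with overexpression and 65 in the control, a ratio of 0.765 (0.527 to 1.11). At 18p11.31, on chromosome 18, 3446701 to 3458289, the control had 1 peak of 11367 bp where overexpression had 2, and the ratio was 0.637 (0.440 to 0.917). At 7p22.1, on chromosome 7, 5458409 to 5470374, the control again had 1 peak where overexpression had 2, with a ratio of 0.714 (0.542 to 0.939). The other broad domains, at 1p36.12 and 1q32.1, had ratios of 0.801 (0.594 to 1.08) and 0.743 (0.551 to 1.00085). Which genes these domains cover was not determined, since no annotation of the same build was used.

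H3K27ac was next set beside the other chromatin marks. Regions with H2A.Zac were the taller ones. In the control, 19775 regions (72.2%) carried H2A.Zac, and their median height was 12.8 times the genome average, against 10.2 over all control regions. The 5456 control regions with neither H2A.Zac nor H3K4me1 had a median height of 6.41 and a median width of 531 bp. Of these, 60.3% had an overexpression peak, against 92.1% of the 16387 regions with H2A.Zac and no H3K4me1.

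For regions chosen in the control, the height ratio did not follow this order. Among regions chosen in the control and grouped by the control's marks, the median ratio was 0.746 with both H2A.Zac and H3K4me1, 0.748 with H2A.Zac alone, 0.757 with H3K4me1 alone and 0.754 with neither. Where FLAG, the tag on VPS72, had a peak, the median ratio was 0.748, and where it had none it was 0.748 too. Over 20 such groups, taken by the marks of either condition, the lowest median was 0.742 and the highest 0.764. For regions chosen with overexpression the corresponding range was 0.750 to 0.794. By the control's marks, their median was 0.750 with both H2A.Zac and H3K4me1 and 0.755 with H2A.Zac alone. It was 0.764 with H3K4me1 alone and 0.794 with neither, where 62.2% of regions had a control peak to compare with. Split further by strength, 20 classes spanned 0.727 to 0.811 when chosen with overexpression and 0.693 to 0.873 when chosen in the control.

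The marks themselves differed between groups at the shared H3K27ac places in unlike ways. Their ratios were taken where both groups had a deposited peak of the mark, with no q limit. At the q limit in both groups, H2A.Zac lay at 14858 places, H2A.Z at 5712 and H3K4me1 at 4895. H2A.Zac was lower with overexpression, with a median ratio of 0.652 over 17207 places, and 3.83% of them were higher. H2A.Z had a median ratio of 0.929 over 11491 places, with 37.7% higher. H3K4me1 had a median ratio of 1.29 over 9823 places, with 83.9% higher. H3K27ac, at 0.752, therefore lay between H2A.Z and H2A.Zac in the size of its ratio. Each of these ratios rests on 1 library per group, and no test of the difference between marks was possible.

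Fewer shared H3K27ac places carried H2A.Zac with overexpression, 64.9% (95% Wilson interval 64.2 to 65.5%), than in the control, 78.8% (78.2 to 79.3%). H2A.Z was carried by 30.01% with overexpression and 41.1% in the control. H3K4me1 was carried by 53.9% (53.3 to 54.5%) with overexpression and 21.8% (21.29 to 22.4%) in the control. These shares were not corrected for the length of the whole lists, which also differed between groups. The shares are at the q limit, whereas the lengths given here are as deposited, and lengths at the q limit are not given. As deposited, H2A.Z had 57951 regions with overexpression and 182213 in the control. H2A.Zac had 74204 and 81287 in that order, and H3K4me1 had 155160 and 124449. The H3K27ac ratio was alike whatever H3K4me1 did. With H3K4me1 taken at the q limit, the ratio was 0.752 at the 7596 places with it in overexpression alone. It was 0.750 at the 4895 places with H3K4me1 in both groups and 0.754 at places with H3K4me1 in neither. Spearman correlations of the H3K27ac ratio with the ratio of the other mark used places with deposited peaks of that mark in both groups. They were 0.012 for H2A.Zac, −0.002 for H2A.Z and 0.005 for H3K4me1. These values describe places that share the same libraries, and both ratios carry counting error.

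**Figure D4:**
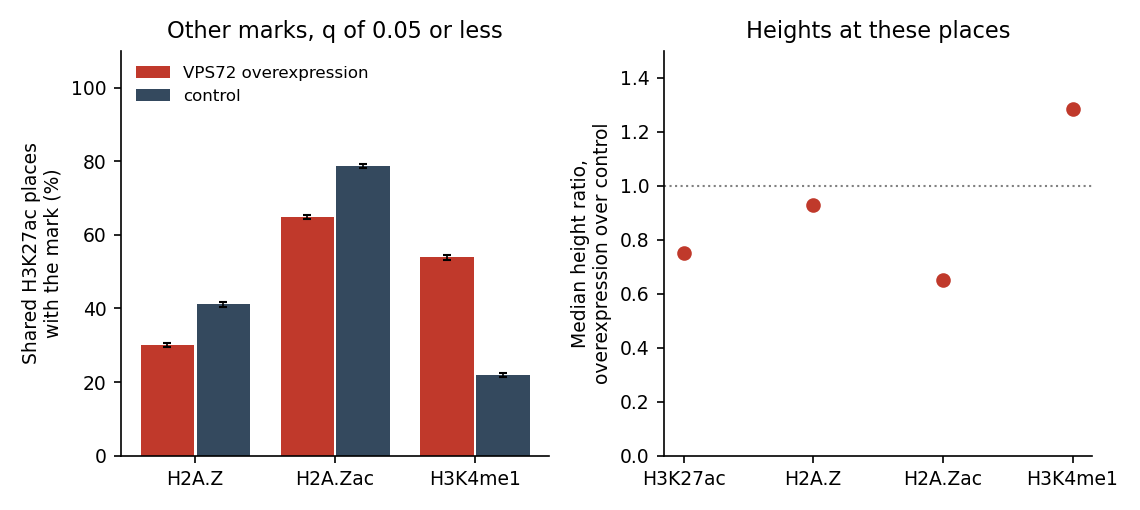
Other marks at the 23176 shared H3K27ac places. The left panel gives the share of places with each mark at a q of 0.05 or less, VPS72 overexpression in red and control in dark blue, with 95% Wilson intervals of the counts. The right panel gives the median ratio of summit height, overexpression over control, with a dotted line at 1. It is given for H3K27ac and for each mark where both groups had a deposited peak of it, with no q limit. H3K4me1 was more frequent with overexpression, 53.9 against 21.8%, and its median ratio was above 1, while the other 3 marks were below 1. Shares are not corrected for the length of each mark's whole list, which differed between groups.

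The places with H3K27ac in 1 list alone were weak. Those of overexpression numbered 2268 and those of the control 4256, and the median summit had 11 reads in both. Of these, 34 with overexpression and 101 in the control reached 20 reads. Most of the strong ones lay where local background was high. At a background under 2 times the genome average, 1 place with overexpression and 30 places in the control reached 20 reads.

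The highest summit found with overexpression alone was at 17p11.1, next to the centromere, on chromosome 17, 22249424 to 22249681. It had 194 reads, but its background was 66.4 times the genome average, its deposited fold 1.36, and an input peak of the same condition overlapped it. The next 3 were at 5q11.1, on chromosome 5, 49440703 to 49440963, 49425278 to 49425687 and 49423126 to 49423496, with folds of 1.45 to 1.92, and input peaks overlapped 2 of them. The fifth was at 9q34.3, on chromosome 9, 141122248 to 141122822, with 51 reads and a fold of 2.01. The highest summits found in the control alone were at 7p11.2 (chromosome 7, 56441172 to 56441421, 127 reads) and 4p16.1 (chromosome 4, 9270160 to 9270403, 64 reads), with folds of 1.99 and 1.80. The next were at 8q21.2 (chromosome 8, 86817002 to 86817266, 49 reads), 4p11 (chromosome 4, 49151321 to 49151646, 45 reads) and 1q42.13 (chromosome 1, 228778875 to 228779147, 42 reads). Backgrounds at these 5 were 5.87 to 33.9 times the genome average, and no input peak overlapped them.

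Because of these backgrounds, the strongest places with a background under 2 were also looked up, a choice made after their values were seen. With overexpression alone they were at Xq22.3 (chromosome X, 106871707 to 106872359, 20 reads), 7q11.1 (19 reads) and 1p36.33 (18 reads). In the control alone they were at 9q34.11 (chromosome 9, 130743472 to 130744111, 26 reads), 1p34.2 (chromosome 1, 41174651 to 41176092, 25 reads) and 19q13.43 (chromosome 19, 57049708 to 57050100, 25 reads). The 3 control places carried H2A.Zac in the control. At 9q34.11 and 19q13.43 H2A.Zac was present with overexpression too, at 12.5 and 8.96 times the genome average, against 17.01 and 16.5 times in the control.

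Places in 1 list alone differed in their company. Of the overexpression places, 62.1% carried none of the other 3 marks in either group, against 28.4% of the control places. In the overexpression library, H2A.Zac lay at 12.4% of the overexpression places and 21.5% of the control places, against 64.9% of the shared places. In the control library, it lay at 16.8% of the overexpression places and 37.6% of the control places, against 78.8% of the shared places. H3K4me1 with overexpression lay at 27.9% of the overexpression places and at 50.4% of the control places, against 53.9% of the shared places.

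The extremes among shared places were set by few reads. Of the 13712 shared places with at least 20 reads in 1 of the libraries, 1217 (8.88%) were higher with overexpression, and ratios ran from 0.419 at the 1st to 1.31 at the 99th percentile. The lowest ratio was at 15q14, on chromosome 15, 35964713 to 35966329, with 8 reads with overexpression and 27 in the control, a ratio of 0.259 (0.102 to 0.585). At 16q23.1, on chromosome 16, 77756430 to 77757103, there were 9 reads with overexpression and 30 in the control, a ratio of 0.262 (0.109 to 0.566). H2A.Zac at that place was nearly level, at 16.6 times the genome average with overexpression and 18.6 times in the control. At 22q11.22, on chromosome 22, 22442188 to 22443326, there were 11 reads with overexpression and 35 in the control, a ratio of 0.274 (0.126 to 0.553). The other 5 of the 8 lowest, at 5p15.31, 17q21.33, 5q14.3, 9q34.3 and 13q14.2, had ratios of 0.291 to 0.306. All 8 intervals lay below the median ratio of 0.752, but the 8 were picked as the lowest of 13712.

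At the other end of the places with at least 20 reads in 1 of the libraries, 3 shared the highest ratio, 2.04 (0.894 to 5.05), each with 21 reads with overexpression and 9 in the control. They were at 12p13.33 (chromosome 12, 663345 to 664571), 7q34 (chromosome 7, 140672247 to 140672934) and 1q41 (chromosome 1, 222762699 to 222763701). The best covered of the 8 highest was at 9q32, on chromosome 9, 116150049 to 116150970, with 39 reads with overexpression and 20 in the control, a ratio of 1.70 (0.969 to 3.08). The other 4, at 12p13.2, 17p11.2, 11p15.5 and 11p15.4, had ratios of 1.67 to 1.83. None of the 8 intervals lay above 1.

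The lower summit heights were spread over the whole genome. Median ratios of the 41 chromosome arms with at least 100 shared places ran from 0.714 (20q) to 0.790 (2p). The number of regions with overexpression over that in the control ran from 0.765 (5p) to 0.950 (19q) across these arms, below 1 in all 41. Among 318 bands with at least 30 shared places, the median ratio was below 1 in all 318, and 0.710 to 0.797 from the 10th to the 90th percentile of bands. The lowest bands were 20q13.2 (0.645 over 41 places), 10q26.3 (0.663 over 30) and Xp11.4 (0.671 over 31). The highest were 5q12.3 (0.873 over 33 places), 6q14.1 (0.855 over 40) and 9q22.33 (0.842 over 41).

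Bands that hold genes of liver biology were described in the same way, with 31 bands in 5 lists. A band holds many genes, so its median is no measurement of any one of them. The 10 bands of lipid synthesis genes held 704 shared places, of which 214 (30.4%) were at least 1.5-fold lower with overexpression and 6 (0.852%) higher, near the 30.1 and 0.656% over all places. Their median ratio was 0.742, with band medians of 0.695 to 0.796. The band of SCAP, the escort of SREBP, 3p21.31, stood at 0.795 over 120 places. The band of SREBF1, which encodes the main activator of fatty acid synthesis, 17p11.2, stood at 0.695 over 86 places. The band of FASN, fatty acid synthase, 17q25.3, stood at 0.722 over 135 places.

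In the 3 bands of VPS72, ATF3 and MTOR, 70 of 220 places (31.8%) were at least 1.5-fold lower with overexpression and 0 were higher. Over all places 30.1% were lower and 0.656% higher. The median was 0.748 in 1q21.3, the band of VPS72 itself, over 91 places, and the region numbers there were 102 with overexpression and 113 in the control. It was 0.689 in 1q32.3, the band of the stress factor ATF3, and 0.765 in 1p36.22, the band of the growth kinase MTOR.

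The 7 bands of secreted liver proteins had a median of 0.757 over 329 places. At 1.5-fold, 88 (26.7%) were lower and 1 (0.304%) higher, against 30.1 and 0.656% over all places. The band of APOB, the main protein of LDL, 2p24.1, was the highest of these 7 bands at 0.824 over 40 places. It was followed by 16q13, the band of the metallothioneins, at 0.818 over 15 places. The band of ALB and AFP, albumin and its fetal relative, 4q13.3, stood at 0.783 over 58 places. The other 4 were below the median of all places, at 0.746 for the band of APOE (19q13.32), 0.743 for APOA1 (11q23.3), 0.733 for the fibrinogen genes (4q31.3) and 0.704 for SERPINA1 (14q32.13). The 5 bands of liver transcription factors had a median of 0.739 over 319 places, with 102 (32.0%) lower and 1 (0.313%) higher. HNF4A, the master regulator of hepatocytes, lies in 20q13.12, where the median was 0.719 over 58 places. The 6 bands of stress and growth genes had a median of 0.744 over 275 places. Of these, 102 (37.1%) were lower and 4 (1.45%) higher, against 30.1 and 0.656% over all places. The lowest of all listed bands was 8q24.21, the band of the growth regulator MYC, at 0.671 over 29 places, and 11q13.3, the band of CCND1 and FGF19, stood at 0.714 over 35 places. Local background in 11q13.3 was 2.67 times the genome average with overexpression and 2.44 times in the control.

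**Figure D5:**
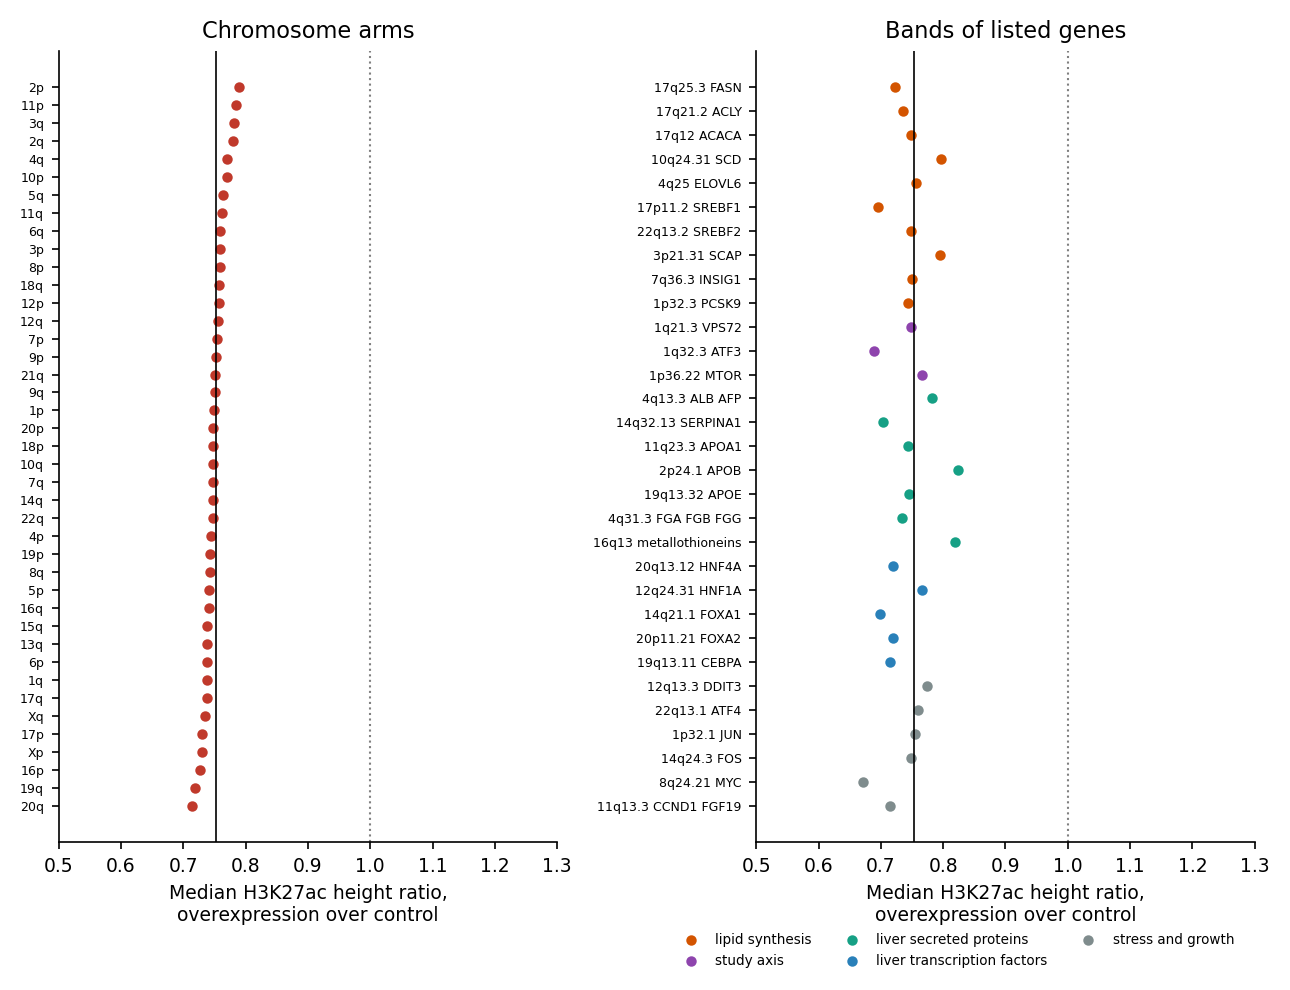
Median ratio of H3K27ac summit height, VPS72 overexpression over control, for the 41 chromosome arms (left, sorted by value) and for the 31 bands of listed genes (right, coloured by list, with the gene that put the band on the list). The solid line is the median over all places, 0.752, and the dotted line marks 1. Arms lie between 0.714 and 0.790 and listed bands between 0.671 and 0.824, all below 1.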

How the data were processed

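ChIP-seq peak lists of 12 Huh7 libraries were used, 1 per antibody and condition, with groups taken from the sample titles. For overexpression, genotype labels give several VPS names, read as VPS72 as in titles and design text. Per the submitters' processing notes, FastQC, Trimmomatic, BWA and MACS2 were used, without versions. Per the peak names, peaks were called by library. Thresholds and the control for calling are not given in the sources. The notes name hg19 and hg38, and all peaks on the 23 chromosomes lay within hg19 lengths. The smallest deposited −log10 p was 1.30, so the authors' lists were kept on p and not on q.

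The deposited score is the authors' integer score and was not used. The deposited fold is the authors' ratio of summit to local background, with 1 added to both. The deposited −log10 p and −log10 q are the authors' values at the summit, and the deposited summit offset is a position in the peak. The number of whole reads at each summit was recovered from fold and p, within 0.0001 of the deposited −log10 p, for 100% of the peaks of all 8 histone libraries, and more than 1 number fitted at 4 and 8 H3K27ac peaks with overexpression and in the control. The step was checked on simulated peaks. Depth is the genome average times an assumed 2.7 Gb over the shortest peak, 243 bp (overexpression) or 237 bp (control). Input peaks overlapped 9 H3K27ac regions with overexpression and 4 in the control.

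Regions shared at least 1 bp. Intervals of shares are Wilson intervals, and those of ratios are exact (Clopper-Pearson), at 95%. With 1 library per group there was no test: a place was called at 1.5-fold. Regions named are the 6 highest by summit and by q, the 8 lowest and highest ratios at 20 or more reads, the 5 highest in 1 list alone, the 5 widest of each list, and 3 bands each way. Some listed bands are not reported here. The members, band lists and rules were chosen with earlier results of these data known. No gene was assigned to a region and no sequence is given, since no hg19 genome or annotation was used. Bands came from circlize 0.4.16 in R 4.3.3, and all else was computed in Python 3.11.15 with scipy 1.17.1, pandas 2.3.3 and numpy 2.4.6, and drawn with matplotlib 3.10.9.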

Additional observations from a re-analysis of the deposited data

Results flagged for a closer look

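Outside chromosomes 1 to 22 and X, which no comparison above uses, the H3K27ac lists held 788 peaks with VPS72 overexpression and 610 in the control. This signal was picked out because it lies in unused data and exceeds the control, but at a q of 0.05 or less the numbers were 212 and 178 in the same order, and most of the deposited ones, 670 and 508, lay on decoy sequence.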

How the results depend on the processing

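No paired analysis was possible because each group had 1 H3K27ac library. With no q limit, region number and covered length over control turned to 1.19 and 1.00055, from 0.872 and 0.827. The shares found then were 39.0% (overexpression regions) and 44.2% (control regions). The median height ratios were 0.742 (chosen with overexpression) and 0.786 (chosen in the control), 0.786 with H3K4me1 and 0.768 with H2A.Zac alone, and 25.8% were lower and 3.57% higher at 1.5-fold, against 30.4 and 1.5% of control regions. At a q of 1e-05 the same values were 99.9, 98.04, 0.764, 0.732, 0.727, 0.735, 33.1 and 0.576%. With 50% reciprocal overlap the shares found were 68.7 and 64.3%, the ratios 0.770 and 0.746, and 0.159% were higher. With the deposited fold in place of height the ratios were 0.810, 0.787, 0.770 (H3K4me1) and 0.787 (H2A.Zac alone), with 4.00% higher. With the q limit in both lists they were 0.746 and 0.771, with 25.1% lower and 1.76% higher. Chosen by control H2A.Zac, the ratio was 0.757, with 29.3% lower and 0.819% higher. Over merged places 0.656% were higher, against 1.5% by region. Joining peaks within 1000 bp gave 89.9 and 86.2% found. In 33 other values, among them those without chromosome X or without 5 bands of raised background on chromosomes 11 and 14, no direction changed. The cause of these shifts was not tested. The median ratio stayed between 0.727 and 0.810 in every alternative. Depth limits single places: at 10 reads a ratio is open within wide intervals, and weak regions missing from 1 list may be below its limit.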
